A study of Gallus gallus with 32 samples.

Results

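POMC and 2 transcription factors of the corticotropes, TBX19 and NEUROD1, were followed in the pituitary of chickens from a Fat and a Lean line. The members are all probes that the platform's probe table names POMC, TBX19 or NEUROD1, which gave 3 of the 6428 genes with a symbol on the array and 4 of its 19200 spots, namely 2 for POMC and 1 each for TBX19 and NEUROD1. The POMC probes are called here by the grid block that holds them, block 37 and block 38, and the probe table pairs neither with a genome position or a sequence. All 4 probes were usable on every array that was fitted.

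POMC encodes pro-opiomelanocortin, the precursor that corticotropes of the anterior pituitary cut into ACTH, the hormone that drives the adrenal gland, and that also holds the sequences of alpha-MSH and beta-endorphin. In mammals TBX19 (also called TPIT), a T-box factor, is needed for POMC transcription in corticotropes, and NEUROD1, a bHLH factor, pairs with E proteins at an E-box of the POMC promoter in mouse corticotrope cells. Corticotropin-releasing hormone and, in birds, vasotocin raise ACTH release through the cyclic AMP and calcium routes, and glucocorticoids from the adrenal feed back on POMC.

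The fat birds and the lean birds came from lines bred apart on abdominal fat weight and were raised as broilers, and pituitaries were taken at 1, 3, 5 and 7 weeks of age. Line and age gave 8 groups of 4 arrays, which the design text calls biological replicates made of individual samples, and the labels used here give neither sex nor feeding state. On each of the 32 spotted cDNA arrays (Del-Mar 14K), amplified RNA of 1 sample was labelled with Cy3 and hybridised beside a Cy5-labelled reference that mixed the 32 samples. A level below is the log2 ratio of a sample over this pool, and levels of different probes are not set against each other.

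The files of fat week 7 replicate 2 and lean week 7 replicate 2 hold the same scan. Area and quality score were identical for 54.4% of their spots, and their normalized log ratios correlated at 0.99. Between other arrays area and quality score were identical for no more than 0.844% of spots. This second count, unlike the first, left out spots without a measured area. Both were left out of the fit, so that 30 arrays were fitted and week 7 had 3 arrays per line. In the 2 files POMC read 0.12 (fat) and 0.11 (lean) in block 37, TBX19 0.25 and 0.25, and NEUROD1 0.46 and 0.46.

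A further 5 arrays stood apart from the rest. Fat week 7 replicate 4 had log ratios that sloped down the slide, with a median 0.92 lower in the top 3 rows of grid blocks than in the bottom 3, against -0.25 to 0.19 on the other arrays. Lean week 7 replicate 3 had the widest spread of log ratios, an SD of 0.71 over its spots, against 0.58 on fat week 7 replicate 4 and 0.29 to 0.45 on the others. Lean week 1 replicate 4 and lean week 5 replicate 2 differed in the pool channel, where their Cy5 signals correlated across spots at 0.95 with each other and with a median of 0.87 and 0.84 with the other arrays. Fat week 5 replicate 1 was low there too (0.85), had the weakest Cy3 signal over background of all arrays (3.68 times), and gave the lowest NEUROD1 signals in both dyes among the 30 fitted arrays (2220 in Cy3 and 3308 in Cy5).

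The pituitary label was set beside the signals of hormone genes. GH, PRL, CGA, TSHB and FSHB, the products of somatotropes, lactotropes, thyrotropes and gonadotropes, had median Cy3 signals of 26.5 to 67.6 times the local background. Markers of endothelium, fibroblasts and leukocytes had 8.31 (CDH5) to 85.0 (PECAM1) times, a range that covers the hormone genes. Signals of this kind therefore cannot decide which tissue was sampled. GFAP, NEFL, SNAP25 and MBP, genes of glia and neurons, had 11.1 to 52.2 times. How far cells other than endocrine ones add to the signal cannot be read from these values either. In the limma fit 0 of these 4 neural genes were called between lines or between week 7 and week 1, with 1 and 2 of them at an unadjusted p under 0.05. Over all tested probes 0.683% and 15.8% were called in these comparisons, and 16.2% and 32.7% had such an unadjusted p. Of the members, POMC had 2.36 to 17.2 times its background in block 37 and 2.89 to 6.84 times in block 38, TBX19 7.93 to 32.8 times and NEUROD1 6.32 to 38.1 times, and none of their spots was saturated.

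POMC did not pass the test between lines or between ages, in either probe. Over the 4 ages the fat line read 0.12 higher in block 37 and 0.13 higher in block 38 (log2), a fold of 1.09 in each, and by week 7 POMC was 0.12 and 0.07 lower than at week 1. The groups overlapped at every age in block 37 and at every age but week 7 in block 38. At that age they overlapped as well when each grid block was normalized apart. In whole pituitaries, fewer corticotropes and less RNA per corticotrope cannot be told apart.

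At week 1 POMC in block 37 read 0.03, -0.08, -0.31 and -0.15 in the 4 fat arrays, against -0.14, -0.11, -0.33 and -0.21 in the 4 lean arrays. At week 3 it read 0.02, 0.16, -0.31 and -0.21 in fat arrays, against -0.27, -0.18, -0.42 and -0.14 in lean arrays. The fat arrays of replicates 1 and 2 were the high ones at both ages. At week 5 it read 0.12, 0.21, -0.31 and -0.13 in fat arrays, against -0.01, -0.13, -0.22 and -0.19 in lean arrays. At week 7 it read -0.25, -0.35 and -0.04 in fat arrays, against -0.20, -0.69 and -0.16 in lean arrays. Fat week 5 replicate 2 was the highest of the 30 arrays and lean week 7 replicate 3 the lowest, and the lines overlapped at all 4 ages. Replicate 3 was the lowest fitted array of its group in both lines at all 4 ages.

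**Figure D1:**
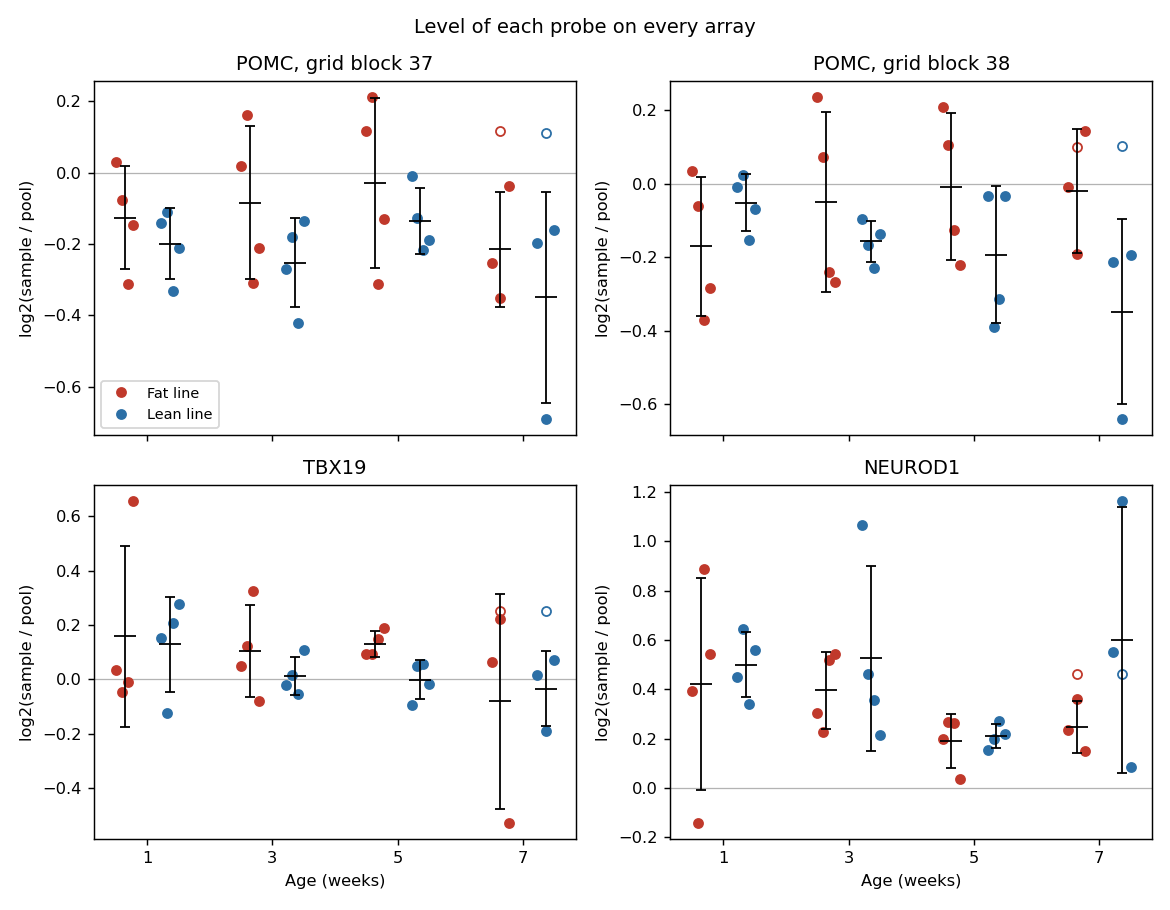
Level of each probe on every array, as log2 of sample over pool (y axis), by age in weeks (x axis), with the fat line left of the lean line at each age. Filled points are the arrays fitted, bars the mean ± SD, and open points at week 7 the 2 files of the shared scan, which were not fitted. Lean week 7 replicate 3 is lowest for both POMC probes (-0.69 and -0.64) and highest for NEUROD1 (1.16).

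The second POMC probe gave a similar picture with a different order at week 1. In block 38 POMC read 0.03, -0.06, -0.37 and -0.29 in fat arrays at week 1, against -0.01, 0.03, -0.15 and -0.07 in lean arrays. At week 3 it read 0.24, 0.07, -0.24 and -0.27 in fat arrays, against -0.10, -0.17, -0.23 and -0.14 in lean arrays. At both ages the fat arrays spread wider than the lean ones, with SDs of 0.19 and 0.25 in the fat line and 0.08 and 0.06 in the lean line. At week 5 it read 0.21, 0.11, -0.13 and -0.22 in fat arrays, against -0.03, -0.39, -0.31 and -0.03 in lean arrays. At week 7 it read -0.01, -0.19 and 0.15 in fat arrays, against -0.21, -0.64 and -0.19 in lean arrays. Each of the 3 fat arrays stood above each of the lean ones, though the nearest pair reads -0.19 in both lines at this rounding. This order depended on the normalization. With a loess curve for each grid block in place of 1 per array, the fat arrays read -0.11, -0.33 and -0.18. The lean arrays then read -0.30, -0.69 and -0.25, so the lines overlapped.

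The order of the 8 group means shows how close they lay. In block 37 the fat line at week 5 was highest (-0.03 ± 0.24, SD, n = 4), followed by fat week 3, fat week 1, lean week 5, lean week 1, fat week 7 and lean week 3, with lean week 7 lowest (-0.35 ± 0.30, n = 3). None of the 7 gaps between neighbours in that order exceeded the larger SD of its pair. In block 38 the order ran fat week 5 (-0.01 ± 0.20, n = 4), fat week 7, fat week 3, lean week 1, lean week 3, fat week 1, lean week 5 and lean week 7 (-0.35 ± 0.25, n = 3). There 1 of 7 gaps exceeded the larger SD of its pair, that of 0.11 between lean week 1 (SD 0.08) and lean week 3 (SD 0.06).

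Across ages the fat-minus-lean difference of POMC in block 37 was 0.12 (SE 0.07, 95% interval -0.02 to 0.26, limma adjusted p = 0.368), and in block 38 it was 0.13 (SE 0.07, interval -0.01 to 0.27, adjusted p = 0.354). In this comparison 0 of the 4 member probes were called, also at an unadjusted p under 0.05, while 0.683% of the 14648 tested probes were called and 16.2% had such an unadjusted p. With the replicate number as a block the unadjusted p was 0.0184 for block 37 and 0.0290 for block 38, with adjusted p of 0.144 and 0.173. The upper bounds of the intervals correspond to 1.20-fold in both probes, so a difference up to that size between lines remains within the error of these arrays. Taking arrays of the same replicate number and age together, the fat array was the higher one in 12 of 15 comparisons for block 37 and in 9 of 15 for block 38. Counted only where the file headers give both files the same day, it was higher in 10 of 12 and in 6 of 12, with median differences of 0.09 in each probe. Without lean week 7 replicate 3 the difference over ages was 0.08 in block 37 and 0.09 in block 38.

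By age, the line difference of POMC in block 37 was 0.07, 0.17, 0.11 and 0.13 at 1, 3, 5 and 7 weeks. In block 38 it was -0.12, 0.11, 0.18 and 0.33 at the same ages. The value at week 7 in block 38, 0.33 (SE 0.15, interval 0.02 to 0.64), is a fold of 1.26 with an unadjusted p of 0.0388 and a limma adjusted p of 0.215, and it is the 1 member value with an unadjusted p under 0.05 among the 4 ages. At weeks 1, 3 and 5 limma called 0 of the 4 members and 0% of all tested probes (541, 465 and 565 probes had an unadjusted p under 0.05), and at week 7 it called 0 of the 4 members and 0.0205% of all. At week 7 3066 probes, or 20.9% of those tested, had an unadjusted p under 0.05, so 1 of 4 members is close to the share over all probes. The week 7 values leaned on lean week 7 replicate 3, since without that array the difference was -0.04 in block 37 and 0.18 in block 38. They also depended on the normalization. With a loess curve per grid block the week 7 difference was 0.09 in block 37 and 0.21 in block 38. The latter had a limma unadjusted p of 0.165 (adjusted p = 0.435). Both POMC blocks lie in the bottom rows of the grid, which read higher than the top rows on fat week 7 replicate 4. On that array the loess curve per grid block moved POMC in block 38 from 0.15 to -0.18. In block 37 it moved POMC from -0.04 to -0.06. The test of whether the line difference depended on age gave adjusted p = 0.999 for each of the 4 probes, with 0% of all tested probes called (640 at an unadjusted p under 0.05).

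**Figure D2:**
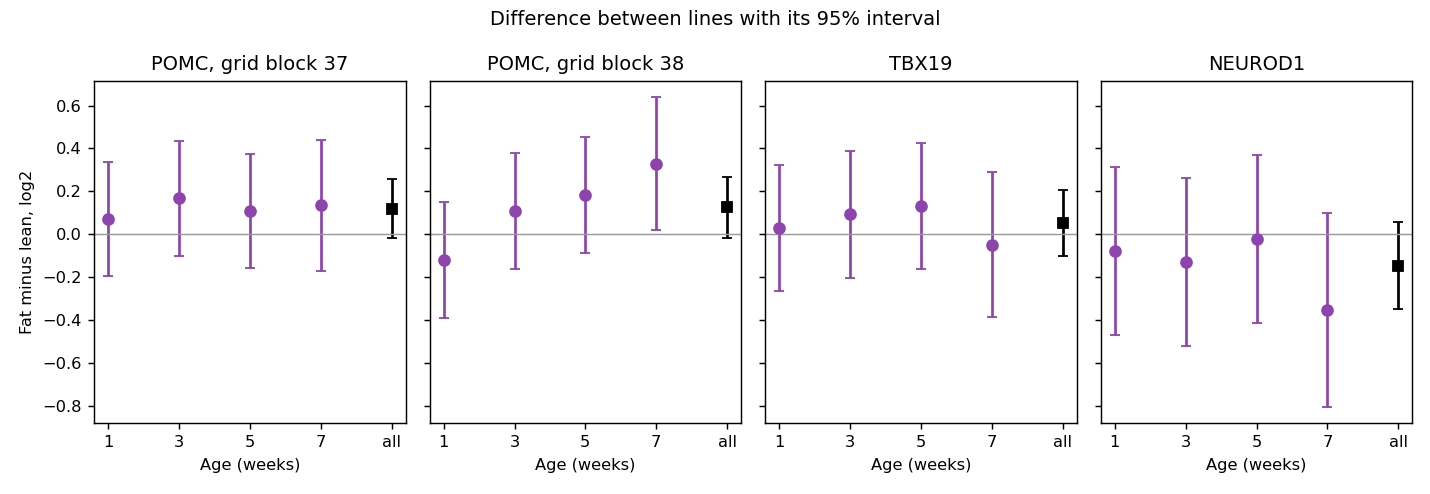
Fat minus lean in log2 (y axis) for each probe at 1, 3, 5 and 7 weeks (circles) and as the mean over the 4 ages (squares, all on the x axis), with 95% intervals from the limma fit to 30 arrays. All intervals over the ages cover 0, and of those at single ages POMC in block 38 at week 7 (0.02 to 0.64) does not.

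No change of POMC with age passed the test. For all age changes given here, no header day held both week 1 and week 7. Replicates 3 and 4 of week 7, in both lines, had a header day without any other age. Age and header day thus cannot be fully told apart. From week 1 to week 7, as a mean of both lines, block 37 differed by -0.12 (SE 0.10, interval -0.32 to 0.08, limma adjusted p = 0.412) and block 38 by -0.07 (SE 0.10, interval -0.28 to 0.13, adjusted p = 0.640). In this comparison 0 of the 4 members were called, also at an unadjusted p under 0.05, while 15.8% of all tested probes were called and 32.7% had an unadjusted p under 0.05 (2319 probes called, or 1003 and 1035 when fat week 7 replicate 4 or lean week 7 replicate 3 was left out). The size of the change was larger than that of 35.9% of tested probes for block 37 and of 22.1% for block 38. The test for any difference among the 4 ages gave adjusted p = 0.538 and 0.914, and there too 0 of the 4 members were called (none at an unadjusted p under 0.05), against 5.35% of all called and 21.1% at that unadjusted p.

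The 2 POMC probes moved together from array to array. Their log2 ratios correlated at Pearson's r = 0.77 and Spearman's rho = 0.66 over the 30 arrays (permutation p = 1e-05 for r, the smallest that 100000 permutations can give, and 9e-05 for rho, adjusted to 6e-05 and 0.00054 over the 6 pairs of members). The arrays share groups, header days and replicate numbers and may not be independent, which limits these p-values. Without the 2 arrays farthest from the median of block 37, r was 0.65, and within arrays of 1 replicate number it was 0.54 to 0.74. With the group means taken out it was 0.81, so the 2 probes also varied together among arrays of the same line and age. Many other probes shared this variation, since 1386 tested probes (9.46%) correlated above 0.7 with block 37 and 1029 (7.03%) with block 38. The authors' table of log2 ratios gave r = 0.55 for the pair.

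On the 2 lean arrays that differed in the pool channel, the pool itself gave far less POMC signal. Block 37 had mean Cy5 signals above background of 983 units on lean week 1 replicate 4 and 556 on lean week 5 replicate 2, against 3884 to 8855 on the other 28 fitted arrays. Its Cy3 signals were low as well, 825 and 1071, against 2018 to 8151. In block 38 Cy5 was 1295 and 698 on these arrays, against 1147 to 3173 on the others, so lean week 1 replicate 4 was within the range there. Both dyes fell short together, and the log2 ratios of block 37 (-0.21 and -0.13) stayed near those of the other lean arrays. Leaving out both arrays gave line differences over ages of 0.12 in block 37 and 0.11 in block 38, and leaving out fat week 5 replicate 1 as well gave 0.11 and 0.09, none of which was called.

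**Figure D3:**
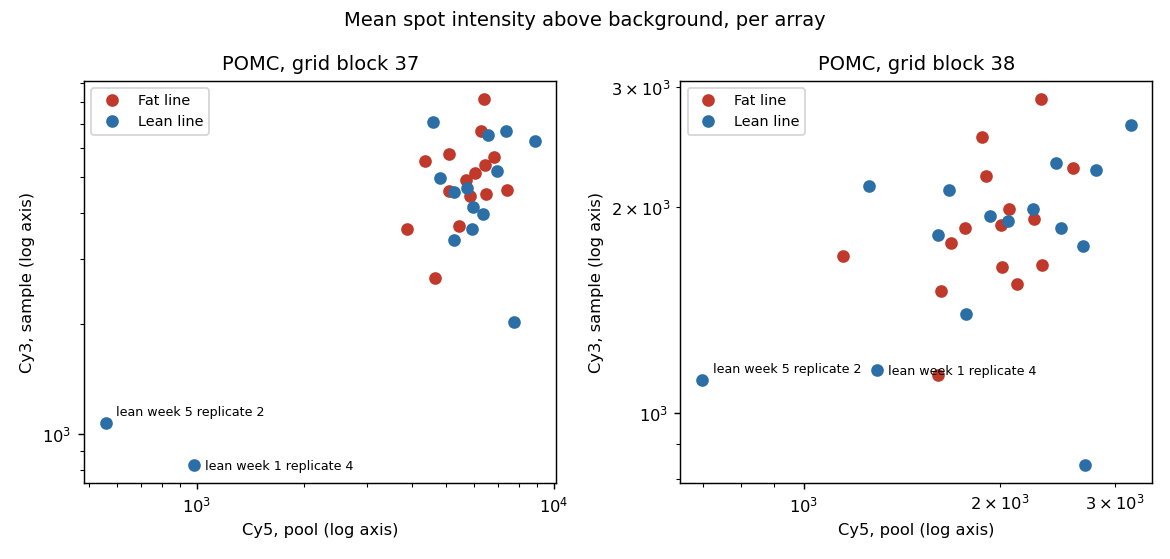
Mean signal per spot above background for both POMC probes on the 30 fitted arrays, Cy5 of the pool (x axis) against Cy3 of the sample (y axis), both on log axes, with fat arrays in red and lean arrays in blue. The labelled arrays, lean week 1 replicate 4 and lean week 5 replicate 2, are low in both dyes in block 37 (Cy5 of 983 and 556), and in block 38 lean week 1 replicate 4 lies within the range of the others in Cy5.

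TBX19, the T-box factor of the corticotrope lineage, was not called in any comparison. Its levels lay close to the pool in both lines, from -0.08 ± 0.39 (SD, n = 3) in the fat line at week 7 to 0.16 ± 0.33 (n = 4) in the fat line at week 1. At week 1 TBX19 read 0.04, -0.05, -0.01 and 0.66 in fat arrays, against 0.15, -0.12, 0.21 and 0.28 in lean arrays. At week 3 it read 0.05, 0.12, 0.33 and -0.08 in fat arrays, against -0.02, 0.02, -0.05 and 0.11 in lean arrays. Fat week 1 replicate 4 stood apart from the 3 other fat arrays of its age and was the highest of all 30, and the lines overlapped at both ages. At week 5 it read 0.09, 0.09, 0.15 and 0.19 in fat arrays, against -0.10, 0.05, 0.06 and -0.02 in lean arrays. At week 7 it read 0.06, 0.22 and -0.53 in fat arrays, against 0.02, -0.19 and 0.07 in lean arrays. At week 5 all 4 fat arrays stood above all 4 lean arrays, and at week 7 the lines overlapped.

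The lowest TBX19 level, -0.53 on fat week 7 replicate 4, came from the array whose log ratios sloped down the slide, and the TBX19 probe lies in block 6, near its top. With a loess curve for each grid block in place of 1 per array, the same spot read 0.14, and the authors' table gives 0.18. The 3 fat arrays of week 7 then read 0.14, 0.18 and 0.14 for TBX19, against 0.03, -0.18 and -0.03 in the lean arrays, without overlap.

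Over ages, the fat-minus-lean difference of TBX19 was 0.05 (SE 0.07, interval -0.10 to 0.20, limma adjusted p = 0.740), and 0.12 with a loess curve per grid block (adjusted p = 0.339). By age it was 0.03, 0.09, 0.13 and -0.05 at weeks 1, 3, 5 and 7, and with a loess curve per grid block the value at week 7 was 0.21. The value at week 7 thus has no settled sign. From week 1 to week 7 TBX19 differed by -0.20 (SE 0.11, interval -0.43 to 0.02, adjusted p = 0.200), and by -0.01 with the loess curve per grid block. The test over all ages gave an adjusted p of 0.605. None of the 7 gaps between neighbours in the order of its group means exceeded the larger SD of the pair. The fat array was the higher one in 11 of 15 comparisons of the same number and age, and in 9 of the 12 with the same header day.

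NEUROD1, which in mouse corticotropes pairs with E proteins on the POMC promoter and is also a factor of neurons and pancreatic islets, varied most between arrays. Its SD over the 30 arrays was 0.29, larger than that of 70.5% of tested probes, against 0.18 and 0.19 for the POMC probes and 0.19 for TBX19. At week 1 NEUROD1 read 0.39, -0.14, 0.89 and 0.54 in fat arrays, against 0.45, 0.64, 0.34 and 0.56 in lean arrays. At week 3 it read 0.30, 0.23, 0.52 and 0.54 in fat arrays, against 1.07, 0.46, 0.36 and 0.21 in lean arrays. At week 1 the lowest and the highest array were both fat, with all lean ones between them, and at week 3 lean replicate 1 stood above all others of its age, so the lines overlapped at both ages.

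At week 5 NEUROD1 read 0.20, 0.27, 0.26 and 0.03 in fat arrays, against 0.16, 0.20, 0.27 and 0.22 in lean arrays. At week 7 it read 0.23, 0.36 and 0.15 in fat arrays, against 0.55, 1.16 and 0.09 in lean arrays. Week 5 was the most even age, with SDs of 0.11 in fat and 0.05 in lean arrays, and week 7 the least even in the lean line, with an SD of 0.54, and the lines overlapped at all 4 ages. The group means lay between 0.19 in the fat line at week 5 and 0.60 in the lean line at week 7, and none of the 7 gaps between neighbours exceeded the larger SD of the pair.

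The fat-minus-lean difference of NEUROD1 over ages was -0.14 (SE 0.10, interval -0.35 to 0.06, limma adjusted p = 0.456), a fold of 0.904. By age it was -0.08, -0.13, -0.02 and -0.35, the last with an adjusted p of 0.353. Without lean week 7 replicate 3, where NEUROD1 read 1.16 (0.56 in the authors' table), the difference was -0.07 at week 7 and -0.07 over ages. The fat array was the higher one in 6 of 15 comparisons of the same number and age, and in 6 of the 12 with the same header day, where the median difference was 0.015. From week 1 to week 7 NEUROD1 differed by -0.04 (SE 0.15, interval -0.34 to 0.26, adjusted p = 0.886), and the test over all ages gave an adjusted p of 0.451.

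**Figure D4:**
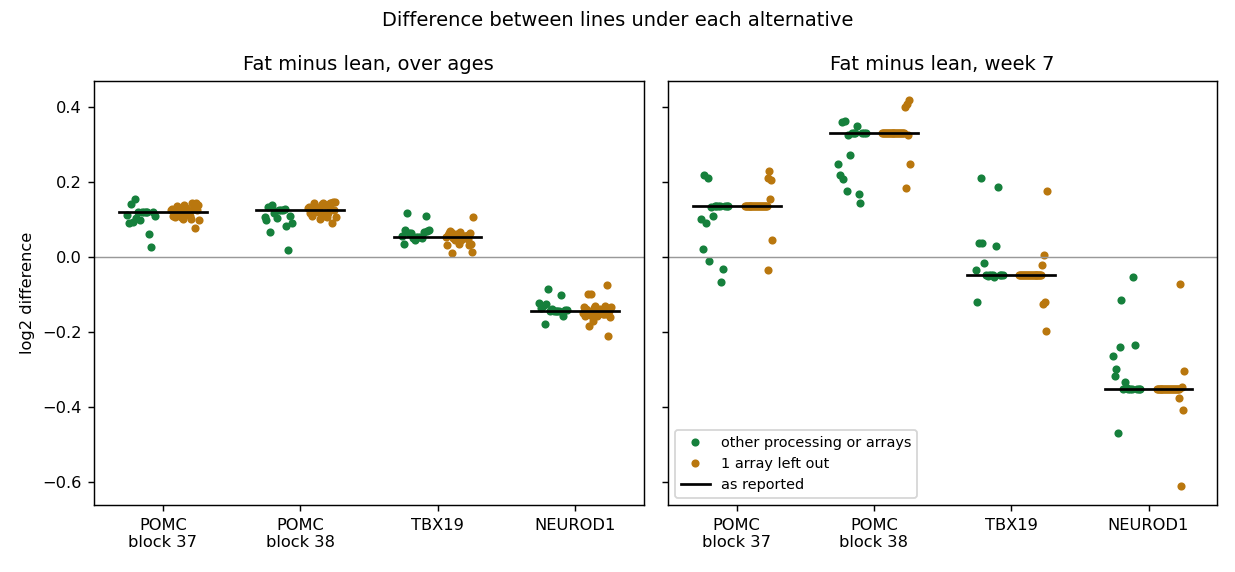
Fat minus lean in log2 (y axis) for each probe, over the 4 ages (left) and at week 7 (right). The black line is the value as reported, green points are other ways of processing or other sets of arrays, and brown points leave out 1 array each. Over ages every value keeps its sign, from 0.03 to 0.15 for POMC in block 37, and at week 7 POMC in block 37 and TBX19 take both signs.

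Across the 30 arrays NEUROD1 ran against POMC, though not for block 37 in the authors' table. These arrays share groups, header days and replicate numbers, so they may not be independent, which limits the p-values below. The correlation was r = -0.55 and rho = -0.50 with block 37 (permutation p = 0.00216 and 0.00596, adjusted to 0.00648 and 0.0179 over the 6 pairs) and r = -0.44 and rho = -0.32 with block 38 (p = 0.0147 and 0.0845, adjusted to 0.0294 and 0.169). Without the 2 arrays farthest from the median of block 37, r with that probe was -0.38 (permutation p = 0.0461). Without the 2 arrays farthest from the median of block 38, r with block 38 was -0.25 (permutation p = 0.209). Within arrays of 1 replicate number r with block 37 was -0.62, -0.20, -0.73 and -0.56, over 8, 6, 8 and 8 arrays, and with block 38 it was -0.51, 0.12, -0.90 and -0.30. Without lean week 7 replicate 3 alone it was -0.37 and -0.24, so the drop in size came with that array. With the group means taken out r was -0.49 and -0.42, and with a loess curve per grid block -0.61 and -0.49. In the authors' table r was 0.06 and -0.23, so the relation with block 37 was not seen there. That table reads 0.93 for POMC in block 37 and 0.88 for NEUROD1 on lean week 1 replicate 4. The next highest array for block 37 reads 0.32 there, and r without lean week 1 replicate 4 was not computed. It also holds no POMC value for lean week 5 replicate 2. TBX19 had r = 0.01 and -0.13 with the POMC probes and -0.03 with NEUROD1 (adjusted permutation p of 0.738 to 0.967). With a loess curve per grid block, which moved its spot on fat week 7 replicate 4, r with the POMC probes was 0.27 and 0.17, and in the authors' table it was 0.39 and 0.14. Within arrays of 1 replicate number it ran from -0.48 to 0.66 with block 37 and from -0.71 to 0.76 with block 38, so no sign of this relation was settled.

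The genes whose probes followed each member best over the arrays were picked by Pearson's r of the log2 ratios, as a description. For POMC in block 37 they were ARHGAP26 (r = 0.95), NME6 (0.92), C1QTNF2, MPP2 and RPS6KL1 (0.90 each). For block 38 they were DIO1 (0.88), SP4, STUB1, SNX7 and CBFB (0.86 to 0.87). No gene stood in both sets of 5. For TBX19 they were RNF123 (0.77), EED, AHSG, CNOT10 and ECEL1 (0.72 to 0.76), and for NEUROD1 they were NONO (0.73), PCNA, ANXA5, ATP5F1AW and MEIS2 (0.69 to 0.71). The TBX19 set lies in blocks 1, 5, 1, 11 and 1, in the top rows of the grid like TBX19 itself, where the ratios of fat week 7 replicate 4 sloped. With a loess curve per grid block its r was 0.33 to 0.56, against 0.66 to 0.80 for the NEUROD1 set. In the authors' table the set of block 37 had r of 0.15 to 0.52 and that of block 38 had 0.53 to 0.64. Over all tested probes 16 passed r = 0.7 with TBX19 and 6 with NEUROD1, and in the authors' values 237 and 201 did, where the POMC probes had 475 and 293.

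Around the members, the other genes of the POMC route were taken by lists of their role, with the brightest probe standing for a gene. None of the 8 measured genes (of 24 listed) for POMC transcription and the corticotrope lineage was called between week 7 and week 1, also counting TBX19 and NEUROD1, against 15.8% of all tested probes. In the same limma fit 1 of them, SMARCA4, had an unadjusted p under 0.05 in its brightest probe. SMARCA4, the ATPase of a chromatin remodeller, differed by -0.37 (SE 0.13, adjusted p = 0.0528) in its brightest probe and by -0.13 in the other (adjusted p = 0.580). The brightest SMARCA4 probe was called in 7 of 45 alternatives (lowest adjusted p = 0.00906, with array weights), among them those that left out lean week 7 replicate 3 (-0.45) or, in the fat line of that age, replicate 1 (-0.42) or 4 (-0.50). TCF12, an E protein of the class that pairs with NEUROD1, differed by -0.11 (adjusted p = 0.242) in its brightest probe. Its other probe differed by -0.24 (limma unadjusted p = 0.0245, adjusted p = 0.0992). STAT3 differed by 0.20 in its brightest probe and by 0.12 and 0.34 in the others. The last of these had a limma unadjusted p of 0.0107 (adjusted p = 0.0604). The list's median was -0.08, against -0.02 over all tested probes.

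Of 6 measured genes (of 22 listed) for the input of CRH and vasotocin and the cyclic AMP relay, 1 rose with age, close to the share of all tested probes called (8.87% higher, 15.8% either way), and the median of the list was 0.01. GNAS, which encodes the stimulatory G protein subunit behind the CRH receptor, averaged 0.09 ± 0.39 at week 7 (SD, n = 6) and -0.47 ± 0.22 at week 1 (n = 8), a rise of 0.56 (SE 0.13, limma adjusted p = 0.00503). Its probe in block 16 rose by 0.32 (adjusted p = 0.0404), and its probe in block 37 differed by -0.10 (adjusted p = 0.545). The 3 probes of PRKAR1A, a regulatory subunit of protein kinase A, split as well: those in blocks 27 and 44 rose by 0.28 and 0.51 (adjusted p = 0.0350 and 0.0343), and the brightest differed by 0.15 (adjusted p = 0.351). Leaving out 1 array ended the call for any of 9 arrays in GNAS block 16, 8 in PRKAR1A block 27 and 7 in PRKAR1A block 44, and without lean week 7 replicate 3 their values were 0.19, 0.21 and 0.44. CRHR2, a CRH receptor, differed by 0.74 (SE 0.33, adjusted p = 0.125) and CREM, a cyclic AMP-responsive factor, by -0.14 (adjusted p = 0.287). CRHR1, the other CRH receptor listed, had no probe of its own and was not measured.

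In the list for glucocorticoid feedback limma called 0 of 9 measured genes (of 20 listed) by their brightest probes, with 2 at an unadjusted p under 0.05 and a median of 0.08, against 15.8% of all tested probes called and 32.7% at that unadjusted p. Those 2, the receptor's co-chaperone FKBP4 and the chaperone HSP90AA1, differed by 0.20 and -0.25 (adjusted p = 0.107 and 0.133). FKBP4 was called in 2 of 46 alternatives, once on leaving out fat week 1 replicate 3 (0.25) and once on leaving out fat week 7 replicate 1 (0.26). HSP90AA1 was called in 4 of 46, without fat week 7 replicate 3 (-0.34), with median centring (-0.35), with scaling between arrays (-0.34) and with the replicate block (-0.30). SGK1, a kinase that glucocorticoids induce, fell by 0.27 in its probe of block 4 (adjusted p = 0.0282), a block of the top row of the grid. The other 4 SGK1 probes differed by -0.29 to 0.13 with no call, and with a loess curve per grid block the probe of block 4 differed by -0.05 and lost its call, as it did on leaving out any of 5 arrays.

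The list of POMC processing and granule genes held the most calls with age of the 5 lists. Of 14 measured genes (of 16 listed) 6 rose and 1 fell, against 8.87% and 6.96% of all tested probes, and the median of the list was 0.23. PCSK1, the convertase that cuts POMC to ACTH, averaged 0.85 ± 0.32 at week 7 (SD, n = 6) and -0.24 ± 0.50 at week 1 (n = 8), a rise of 1.09 (SE 0.19, adjusted p = 0.000414). SCG3, a granin that sorts cargo into granules, averaged 0.10 ± 0.31 at week 7 and -1.03 ± 0.55 at week 1, a rise of 1.13 (SE 0.18, adjusted p = 0.000159). CHGB and SCG2, granins as well, rose by 0.75 and 0.51, SCG5, the chaperone of PCSK2, by 0.55, and CPE, which trims basic residues after the cut, by 0.54, with adjusted p of 0.00118 to 0.0387. Not all granins rose. CHGA differed by 0.04, 0.18 and 0.02 in its 3 probes, and PCSK2 itself by 0.21, with no call (adjusted p of 0.368 to 0.971). The call of CHGB was lost on leaving out any of 7 arrays, at 0.71 without lean week 7 replicate 3. A second CPE probe, in block 38, rose by 0.44 (adjusted p = 0.00672), and the others, in blocks 18 and 37, differed by 0.36 and -0.11 with no call. The genes of this list are not confined to corticotropes, and which cells of the gland these changes came from was not tested.

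PCSK7, a convertase of the constitutive route, fell by 0.49 in block 1 (SE 0.14, adjusted p = 0.0240), and its second probe, in block 19, differed by -0.19 (adjusted p = 0.216). Block 1 lies in the top row of the grid, and without fat week 7 replicate 4 the PCSK7 value was -0.25 and not called, nor was it without lean week 7 replicate 3 or fat week 1 replicate 2 (-0.45 each). Of those that were not called, PCSK5 differed by 0.25 (adjusted p = 0.0690) and CPD by -0.21 (adjusted p = 0.185). Only PRCP, a peptidase that takes the last residue off alpha-MSH in mouse, was measured among 11 listed melanocortin genes. Its brightest probe differed by 0.05 (adjusted p = 0.676), its probe in block 2 fell by 0.61 (adjusted p = 0.00419) and its probe in block 31 differed by -0.10 (adjusted p = 0.383), so the 3 probes disagree. Over the same interval POMC itself differed by -0.12 and -0.07.

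**Figure D5:**
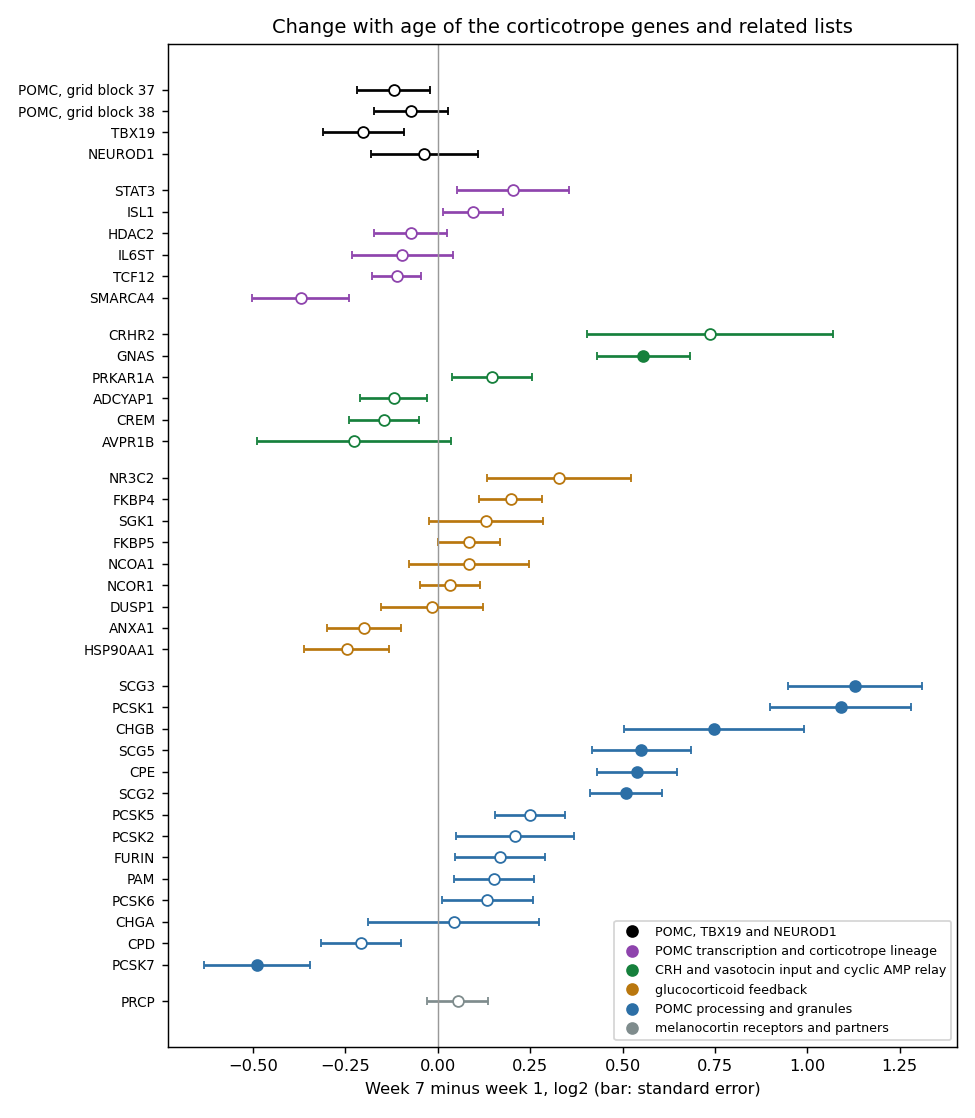
Week 7 minus week 1 in log2, as a mean of both lines (x axis), for the 4 member probes and for the measured genes of 5 lists (y axis, 1 colour per list, brightest probe per gene), with standard errors. Filled points have an adjusted p under 0.05. The member probes lie between -0.20 and -0.04 and are all open, while 6 processing genes lie between 0.51 and 1.13 and are filled.

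Between lines, limma called none of these 5 lists' genes over ages (0 of 8, 6, 9, 14 and 1), with 2, 2, 0, 2 and 0 at an unadjusted p under 0.05. Over all tested probes 0.683% were called and 16.2% had such an unadjusted p. The list medians were 0.06 for POMC transcription, -0.09 for CRH and cyclic AMP, 0.02 for glucocorticoid feedback, -0.09 for processing and 0.08 for PRCP, against 0.01 over all tested probes. Of genes of other cells, both measured hemoglobins of red blood cells (HBA1 and HBBA, of 5 listed) fell with age (-1.51 and -1.93). So did COL1A1 and COL1A2 (2 of 5 measured fibroblast genes), while CD74 of leukocytes rose (1 of 4), and no marker of endocrine cells, neural tissue or endothelium was called with age. Of all tested probes 8.87% were called higher and 6.96% lower. The fibroblast genes COL3A1, DCN and LUM differed by 0.29, 0.49 and 0.07 with no call, and the median of that list was 0.07. CD3E, CTSS and CSF1R of leukocytes differed by -0.28, 0.03 and 0.06, also with no call. These values are of the brightest probes. Of those called, HBBA and COL1A2 have probes in block 6, near the top of the slide, where fat week 7 replicate 4 read low. Neither was tried with a loess curve per grid block. The part of these other cells in the changes of the processing genes was not tested.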

How the data were processed

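For each array the authors deposited the spots' Cy3 and Cy5 intensity with the background around them, as TIGR Spotfinder (version 2.2.4, per the file headers) wrote them, beside other spot measures (area, flags) and a quality score. The deposited table of the whole series holds log2 ratios that the authors had normalized, by steps not given in the sources used here, and served as an alternative. On single arrays its ratios correlated with those computed here at 0.39 to 0.65 (median 0.61).

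Spots that the quality flags marked unusable in either dye were dropped, leaving 14008 to 16134 per array. Intensities were divided by spot area, background-corrected (normexp, offset 50) and normalized by a loess curve per array (limma 3.58.1, statmod 1.5.0, R 4.3.3). The intensities of fat week 7 replicate 2 had their background already subtracted, and it was added back. A probe was tested where at least 75% of arrays and 2 arrays per group were usable, which gave 14648 probes, 8816 of them with 1 gene symbol from the platform's probe table, updated through RefSeq gene identifiers (GRCg7b).

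One limma model held a mean for each of 8 groups, over 30 arrays with 22 residual degrees of freedom. Its two-sided moderated tests were adjusted by Benjamini-Hochberg over all tested probes, and calls were made below 0.05. Lines were compared as fat minus lean at each age and as a mean over ages, the age change is week 7 minus week 1 as a mean of both lines, and F tests covered any difference over weeks and the interaction. Intervals cover 95%. Correlations over arrays were tested with 100000 permutations. The number of arrays limits the precision.

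Members and lists were chosen with earlier results of these data known. Named genes are the member probes, every probe of a listed gene that passed, the 2 genes per list with the smallest p for the age change among the rest, and the 5 closest genes per member. Beyond these, STAT3, CHGA, PCSK2, AVPR1B and markers of cell types are named. Other arrays, normalizations, backgrounds, filters, blocks and the authors' table were tried as alternatives, and the fit was tested on simulated data.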

Additional observations from a re-analysis of the deposited data

Results flagged for a closer look

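TBX19 on fat week 1 replicate 4 stood apart from its group, at 0.66 (log2 of sample over pool) against -0.05 to 0.04 on the other 3 fat arrays of week 1. Its gap to the nearest array took up 0.883 of the group's whole range. It was the 1 such value among 24 combinations of a member probe and a group of 4 arrays, and chance alone gives about 1 in 20. The same spot read 0.54 with a loess curve per grid block and 0.55 in the authors' table. Without that array the fat-minus-lean difference of TBX19 at week 1 was -0.14, against 0.03 with it.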

How the results depend on the processing

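No member probe was called in any of 1488 values of its 32 results under up to 47 alternatives, and the lowest adjusted p was 0.0823, for TBX19 from week 1 to week 7 with median centring. Of these values 22 had the opposite sign, none of them in the line difference over ages. Leaving out 1 array at a time gave the following ranges for the results that changed sign. For fat minus lean, POMC in block 37 ranged from -0.035 to 0.23 at week 7, TBX19 from -0.14 to 0.098 at week 1 and from -0.20 to 0.18 at week 7, and NEUROD1 from -0.23 to 0.11 at week 1, from -0.23 to 0.053 at week 3 and from -0.047 to 0.031 at week 5. For week 7 minus week 1, POMC in block 38 ranged from -0.11 to 0.000327, NEUROD1 from -0.18 to 0.093, the brightest SGK1 probe from -0.022 to 0.24, SGK1 in block 32 from -0.16 to 0.082, CPE in block 37 from -0.38 to 0.18 and the brightest PRCP probe from -0.023 to 0.11.

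Other settings turned the sign of TBX19 at week 7 to 0.036 (the shared scan counted as fat), 0.21 (loess per grid block), 0.037 (median centring), 0.028 (array weights) and 0.19 (the authors' table). They turned NEUROD1 at week 5 to 0.0057 (loess per grid block) and 0.022 (scaling between arrays), and POMC in block 37 to -0.011 (scaling), -0.066 (weights) and -0.031 (the authors' table) at week 7 and to -0.20 (the authors' table) at week 1. With age they turned the brightest PRCP probe to -0.094 (loess per grid block), -0.049 (median centring), -0.010 (weights) and -0.10 (the authors' table) and the brightest SGK1 probe to -0.035, -0.043 and -0.11 (loess per grid block, weights, the authors' table). SGK1 in block 32 turned to 0.015 (median centring), SGK1 in block 4 to 0.014 (the authors' table), the brightest PRKAR1A probe to -0.0049 (scaling) and PCSK7 in block 19 to 0.015 (scaling). For POMC in block 37 at week 1, the authors' table reads 0.93 on lean week 1 replicate 4. The other lean arrays of that age read -0.34 to -0.0057 there. The cause of the turned signs was not tested.

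With the replicate block, the line difference over ages kept adjusted p of 0.144 and 0.173 for POMC, 0.718 for TBX19 and 0.384 for NEUROD1, and the number of probes called over ages was 284 in place of 100, and 696 in place of 3 at week 7. Arrays of the same number and age correlated in their deviations at -0.08 to 0.31 (median 0.145), above 0.1 in 10 of 15 pairs. The rule used here asked for all pairs above 0.1, so the numbers were not taken as pairs. Of the 15 pairs 12 share a header day, and variation shared by replicate number stays in the error of the main fit. No header day held both week 1 and week 7. Replicates 3 and 4 of week 7, in both lines, shared a header day that held no other age. Among the fitted arrays only replicate 1 of each line at week 7 shared a day with weeks 3 and 5. Age and header day are therefore largely confounded at week 7. With the header day as a random block 1634 probes were called for week 1 to week 7, and the 4 members differed by -0.15, -0.093, -0.20 and -0.037, with no call. Over the alternatives, the probes called ranged from 36 to 285 for the line over ages (100 as reported), from 0 to 4 at week 1, from 0 to 10 at week 3, from 0 to 1181 at week 7 (3 as reported, 1181 without fat week 7 replicate 3), from 571 to 3165 for week 1 to week 7 (2319), from 375 to 1342 for any age (784) and from 0 to 1 for the interaction. Of the processing genes 3 to 7 rose (3 with scaling between arrays) and 0 or 1 fell, PCSK7 losing its call in 9 of 46 alternatives and CHGB in 11, GNAS in block 16 in 20 and PRKAR1A in blocks 27 and 44 in 19 and 17. Counts without lean week 1 replicate 4 and lean week 5 replicate 2 were added after seeing the data.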

Other observations

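AVPR1B, the pituitary vasotocin receptor through which vasotocin acts on corticotropes in birds, had a fat-minus-lean difference of -0.50 over ages (SE 0.18, limma unadjusted p = 0.00943, adjusted p = 0.189), and it was singled out after its value was seen. Its 1 probe lies in block 6, near the top of the slide like that of TBX19, where fat week 7 replicate 4 read low. Its difference without that array or with a loess curve per grid block was not tested. In the authors' table lean week 1 replicate 4 reads 0.93 for POMC in block 37, the array with a weak pool signal in that spot, against -0.21 from the per-array file, and the same table lists no value for lean week 5 replicate 2. For lean week 7 replicate 3 it reads -0.24 for POMC in block 37, against -0.69 here, and 0.56 for NEUROD1, against 1.16 here.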
